A study of Canis lupus familiaris with 4 samples.

Results

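The genes described here are those of the response to low oxygen and of glycolysis, measured in P114 and CMT-U27, which are cell lines from mammary cancers of dogs, in their sorted stem-like fraction. Members were taken from a list of 44 gene symbols, and a probe was counted where the array's gene name was a listed symbol or where its description gave that symbol in brackets. Of these genes 42 were on the array with 92 probes (BNIP3 and ENO1 were not matched to a probe), and 41 genes with 89 probes were bright enough to be tested, against 10782 genes with a symbol tested in all. PFKFB4, an enzyme that sets the level of a phosphofructokinase activator, was on the array and was not tested, because its 1 probe was not well above background on both arrays of any line and culture. The list was not chosen on these measurements by its rule, but earlier results of these arrays were known when it was drawn up.

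Each line was represented by cells sorted for Sca1, EpCAM and CD44, and RNA was taken at day 3. The tested culture was kept with tumour-associated macrophages (co-culture), and its control was the same sorted cells of the same line kept alone (single culture). All cells were grown in serum-containing medium in humidified air, and the labels name no hypoxic treatment, so the differences below are between cultures and between lines in ordinary air. The labels do not say where the macrophages came from, or whether they were removed before RNA was extracted. P114 and CMT-U27 are 1 line each, so the 2 arrays per line measure the spread within a line and not the spread between tumours. A canine array with 2 dyes was used, with both cultures of a line on the same array, and each culture was in Cy3 on 1 array of its line and in Cy5 on the other.

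When oxygen falls, prolyl hydroxylases such as EGLN1 and EGLN3 stop marking the transcription factor subunit HIF1A for destruction by the VHL ubiquitin ligase, and HIF1A switches on its target genes. The known targets include secreted factors, enzymes that modify collagen, glucose transporters and most enzymes of glycolysis. In tumours the same genes are also raised without low oxygen by oncogenic signalling, and they are widely used as a score for hypoxia.

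P114 replicate 1 stood apart from the other arrays. Its spots were well above background in 89.4% of cases in the co-culture channel and 91.7% in the single-culture channel, against 57.9% to 65.7% in the channels of the other 3 arrays, so values are also given without it where it matters. No spot was saturated on any array. The ratios of co-culture over single culture had a Pearson correlation between the 2 arrays of a line of -0.149 in P114 and 0.0529 in CMT-U27 over 28692 probes, and of 0.202 and -0.215 over the 41 member genes. These are across genes that share an array, and the low values mean that the ratios on the 2 arrays of a line hardly went together. A dye effect of a probe enters the dye-exchanged arrays with opposite signs. It was not removed before these correlations were taken. The sorted lines were checked against 7 markers of epithelial and sorted tumour cells, all well above background in both. In single culture 1 marker was higher in P114 (14.3%, against 16.7% of all genes) and 5 were lower (71.4%, against 20.1%). The higher one was CD44, by 1.45 log2 units (adjusted p 0.00749). Among the lower ones were EPCAM, at -2.63 (adjusted p 6.48e-06), and KRT19, at -3.91 (adjusted p 1.31e-05). The summed linear level of the 7 was 21296 to 21571 in P114 and 122760 to 136320 in CMT-U27. The part of this difference in the results on the lines was not tested.

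Probes are 60 bases long, and a few sequences are shown for the genes that the results turn on. Coordinates are those of the array files on CanFam3.1, and the strand is read from the order of each pair of coordinates. Exon and UTR positions were not looked up. Bases are in lower case and no base is singled out in the first set, which holds 1 probe each for STC1, CA9, SLC16A3 and PFKP, higher in P114, and for KDM3A, lower in P114. For SLC16A3 and PFKP this is the brightest probe, whose values are given below. For STC1, CA9 and KDM3A it is another probe, with line differences of 0.94, 3.14 and -1.22, and the STC1 probe shown is the dimmest of 3.
STC1, chr25:33624946-33625005, plus strand: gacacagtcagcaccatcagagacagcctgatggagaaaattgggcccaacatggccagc
CA9, chr11:52211046-52211105, plus strand: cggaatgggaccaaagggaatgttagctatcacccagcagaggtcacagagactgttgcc
SLC16A3, chr9:110351-110410, minus strand: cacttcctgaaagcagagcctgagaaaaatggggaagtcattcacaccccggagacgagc
PFKP, chr2:32221264-32221612, minus strand: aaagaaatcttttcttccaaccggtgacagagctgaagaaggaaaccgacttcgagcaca
KDM3A, chr17:38691613-38691672, minus strand: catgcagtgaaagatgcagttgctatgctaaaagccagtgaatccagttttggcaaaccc

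All 4186 pairs of member probes were compared without gaps over at least 40 bases, because members of a family can share sequence. Only 2 pairs from different genes had an identity of 70% or more. A pair of prolyl 4-hydroxylase probes matched at 43 of 60 bases (71.7%), and a pair of oxygen-sensing hydroxylase probes matched at 43 of 57 overlapping bases (75.4%). Capitals mark the bases of the overlap at which the members of a pair differ. Of these 4 probes the EGLN1 probe alone is the brightest of its gene.
P4HA1, chr4:23601984-23602043, minus strand: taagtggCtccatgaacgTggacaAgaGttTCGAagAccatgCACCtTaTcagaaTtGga
P4HA2, chr11:20515383-20515442, minus strand: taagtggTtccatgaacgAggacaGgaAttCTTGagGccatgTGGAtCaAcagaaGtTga
EGLN1, chr4:8107018-8107077, plus strand: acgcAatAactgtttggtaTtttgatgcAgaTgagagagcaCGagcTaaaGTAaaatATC
EGLN3, chr8:12876722-12876781, minus strand: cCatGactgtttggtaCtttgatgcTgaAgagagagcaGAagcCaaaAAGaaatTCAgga

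GAPDH was the gene with the most probes, 7, and 4 of them overlap. The brightest is given first with no capitals, and in the other 3 the capitals mark bases that differ from it, at 3, 1 and 4 places within overlaps of 55, 49 and 57 bases. GAPDH has near-identical copies in mammalian genomes, so the gene behind each of these probes is uncertain.
GAPDH, chr27:38468961-38469129, minus strand: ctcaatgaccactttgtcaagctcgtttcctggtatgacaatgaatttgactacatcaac
GAPDH, chr27:38468956-38469124, minus strand: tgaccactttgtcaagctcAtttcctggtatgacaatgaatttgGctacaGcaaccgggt
GAPDH, chr27:38468972-38469140, minus strand: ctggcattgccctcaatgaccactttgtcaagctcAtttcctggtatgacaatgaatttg
GAPDH, chr27:38468958-38469126, minus strand: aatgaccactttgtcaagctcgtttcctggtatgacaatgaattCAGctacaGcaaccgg

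The lines were compared in single culture first. Of the 41 genes 25 differed between P114 and CMT-U27 at an adjusted p under 0.05 (61.0%), against 36.8% of all genes tested. P114 was higher in 19 of them (46.3%, against 16.7% of all genes) and lower in 6 (14.6%, against 20.1%). The median difference, P114 minus CMT-U27, was 0.36 log2 units over the members and -0.04 over all genes. In 12 members P114 was at least 2-fold higher (29.3%, against 5.86%), and in 1 it was at least 2-fold lower (against 6.35%). Both P114 arrays lay above both CMT-U27 arrays for 23 members (34.1% of all genes) and below them for 12 (39.6% of all genes). The test was limma's separate-channel fit over all 8 channels with Benjamini-Hochberg adjustment over all probes, and each gene is given by its brightest tested probe. Levels below are normalised log2 intensities of a probe, so they are compared between samples and not between genes. In bulk RNA, more cells of a kind and more RNA per cell cannot be told apart.

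**Figure D1:**
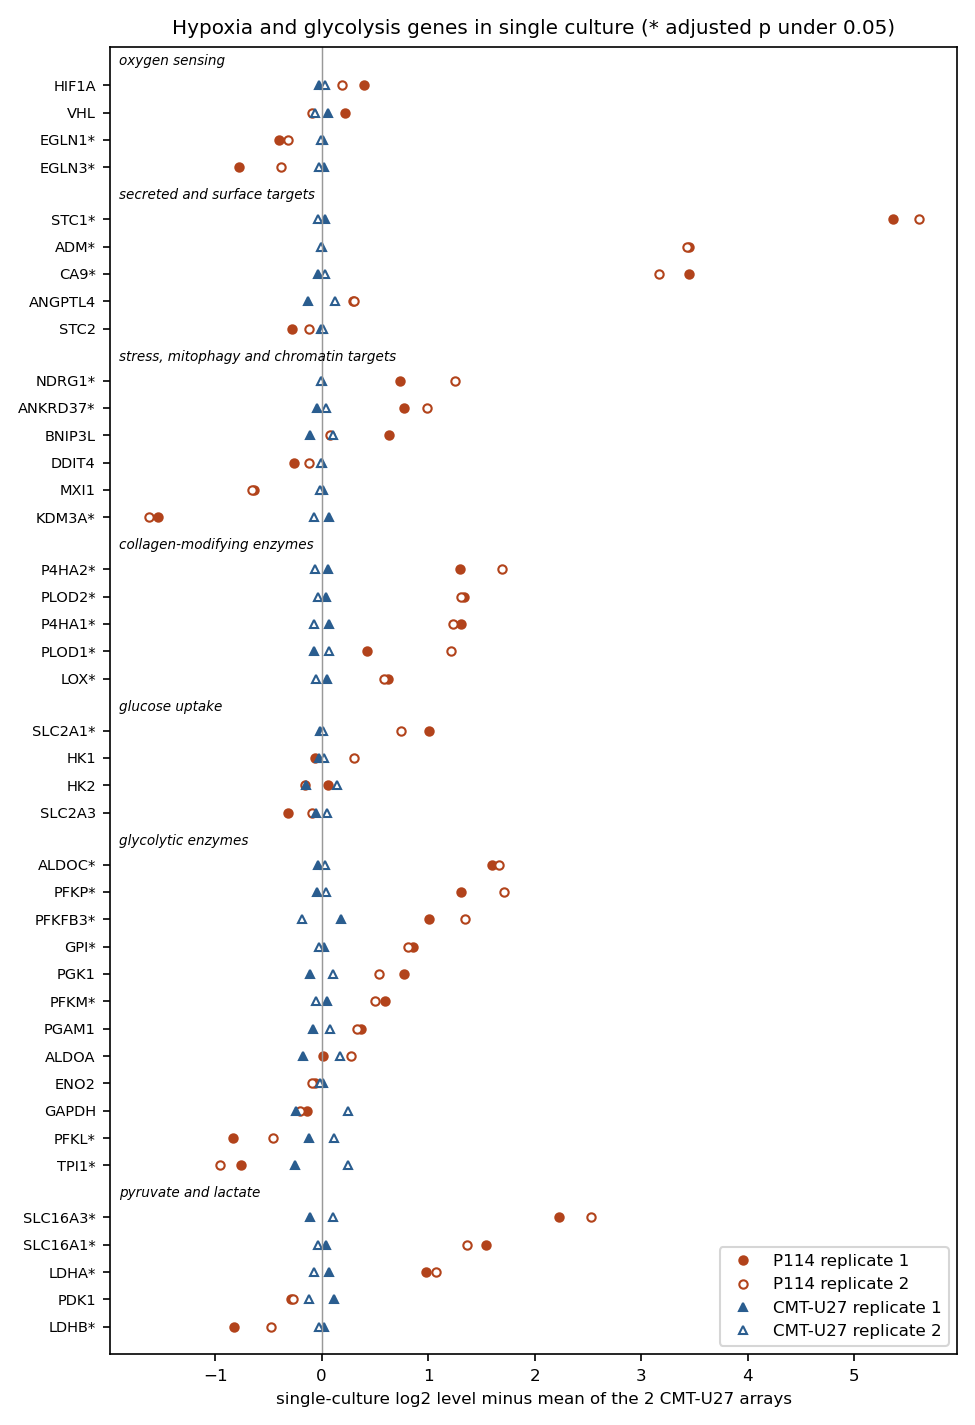
Single-culture log2 level of each of the 41 genes on the 2 P114 arrays (circles) and the 2 CMT-U27 arrays (triangles), minus the mean of the CMT-U27 arrays, grouped by role, with an asterisk for an adjusted p under 0.05. STC1, ADM and CA9 lie more than 3 log2 units to the right in P114, and KDM3A lies furthest to the left.

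Secreted and surface targets held the largest differences. STC1, which encodes the secreted glycoprotein stanniocalcin, had levels of 13.63 and 13.87 on the P114 arrays and 8.29 and 8.23 on the CMT-U27 arrays. It was 5.48 log2 units (SE 0.17), or 44.8-fold, higher in P114, with an adjusted p of 5.16e-07. Its other probes gave 3.53 and 0.94. The P114 values lay far above the CMT-U27 values, and the dimmer STC1 probes were not well above background on 1 or both CMT-U27 arrays, where a difference is understated.

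ADM, the vasodilator peptide adrenomedullin, had levels of 12.03 and 12.01 in P114, against 8.59 and 8.57 in CMT-U27. It was 3.44 (SE 0.11) higher in P114, with an adjusted p of 6.23e-07. CA9, a carbonic anhydrase of the cell surface that acidifies the surroundings of hypoxic cells, stood at 11.53 and 11.25 in P114, against 8.05 and 8.11 in CMT-U27. The difference for CA9 was 3.31 (SE 0.17, adjusted p 5.11e-06), with 3.14 for its other probe.

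ANGPTL4, a secreted inhibitor of lipoprotein lipase, had levels of 8.30 and 8.31 in P114, against 7.88 and 8.13 in CMT-U27. The difference of 0.30 did not pass (adjusted p 0.0794), and it turned to -0.19 when each channel was scaled to its 75th percentile. STC2, a paralogue of STC1, differed by -0.19 (adjusted p 0.204). The very large differences therefore belonged to STC1, ADM and CA9 and not to the 5 genes of this group alike.

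The oxygen-sensing genes differed little. HIF1A had levels of 11.36 and 11.16 in P114, against 10.93 and 10.99 in CMT-U27. The difference of 0.30 (SE 0.11) had an adjusted p of 0.0733, and the other HIF1A probes gave 0.07 and 0.77. EGLN1 was lower in P114, by a difference of -0.36 (adjusted p 0.0494), at 8.87 and 8.95, against 9.28 and 9.26 in CMT-U27. EGLN3 was lower too, by -0.58 (adjusted p 0.0148), at 7.26 and 7.65, against 8.05 and 8.01, with -0.29 for its other probe. The EGLN1 call was lost under 8 of 12 alternatives and the EGLN3 call under 3. VHL differed by 0.06 (adjusted p 0.808). EGLN3 is itself a well-known HIF target. It lay lower in the line in which STC1, ADM and CA9 lay higher, and the cause of these differences was not tested.

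All 5 collagen-modifying enzymes were called higher in P114, against 16.7% of all genes, and the call held under every alternative run for P4HA2 alone. The P4HA genes encode catalytic subunits of prolyl 4-hydroxylase, the PLOD genes encode lysyl hydroxylases and LOX cross-links collagen and elastin. P4HA2 stood at 12.99 and 13.38 in P114, against 11.75 and 11.63 in CMT-U27, 2.82-fold higher (SE 0.16 on the log2 scale, adjusted p 0.000279), and its other probe, printed above, gave a log2 difference of 1.44. PLOD2 stood at 9.44 and 9.40, against 8.13 and 8.06, and was 1.32 higher in P114 (adjusted p 0.00101). P4HA1 stood at 10.39 and 10.31, against 9.15 and 9.0, and was 1.27 higher (adjusted p 0.0224). In P114 PLOD1 was also higher, by 0.82 (adjusted p 0.0315), and LOX was higher by 0.60 (adjusted p 0.00309), at 10.81 and 10.77, against 10.23 and 10.14. The 3 other P4HA1 probes gave 0.24 to 0.86, with 0.86 for the printed one that resembles the P4HA2 probe. The P114 arrays lay above the CMT-U27 arrays for each of the 5 genes, as they did for 34.1% of all genes. PLOD1 had the widest P114 pair, at 9.25 and 10.04, against 8.76 and 8.89. The calls of P4HA1 and PLOD1 were lost under 4 of 12 alternatives, that of LOX under 3 and that of PLOD2 under 1. The difference was 0.42 for PLOD1 without P114 replicate 2, and 0.75 for P4HA1 averaged over its probes. Of 8 fibroblast markers 7 were tested, and 1 differed between the lines (14.3%, against 36.8% of all genes). This was COL1A2, a collagen chain, 2.84 higher in P114 (adjusted p 1.23e-06), while the other 6 did not pass. The summed linear level of the 7 was 21912 to 23015 in P114 and 3985 to 4311 in CMT-U27. That sum was mostly COL1A2, by far the brightest of them, with mean log2 levels of 14.36 and 11.52. The part of these markers in the difference of the collagen enzymes was not tested.

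Among stress, mitophagy and chromatin targets the directions were mixed. NDRG1, a stress-response protein, was 0.99 higher in P114 (adjusted p 0.00244), at 8.66 and 9.18, against 7.94 and 7.92 in CMT-U27. ANKRD37, an ankyrin-repeat protein, was 0.88 higher (adjusted p 0.00113), at 11.24 and 11.46, against 10.43 and 10.51. KDM3A, a histone H3 lysine demethylase and HIF target, went the other way. Its levels were 9.95 and 9.87 in P114, against 11.56 and 11.42 in CMT-U27, a difference of -1.58 (SE 0.11, adjusted p 2.56e-05). All 4 KDM3A probes were lower in P114 and passed, the other 3 between -1.22 and -0.53. DDIT4, an inhibitor of the growth kinase complex mTORC1, differed by -0.19 (adjusted p 0.231), BNIP3L, a mitophagy receptor, by 0.36 (adjusted p 0.191) and MXI1, a MYC antagonist, by -0.64 (adjusted p 0.185). The array files place this BNIP3L probe on chromosome X and the other 2 BNIP3L probes on chromosome 25, so the gene behind it is uncertain.

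Of the genes for glucose uptake 1 of 4 passed (25%, against 36.8% of all genes). SLC2A1, the main basal glucose transporter, stood at 12.51 and 12.25 in P114, against 11.49 and 11.52 in CMT-U27. It was 0.88 higher (SE 0.21, adjusted p 0.015), while its other, dimmer probe gave 0.18. SLC2A3, a neuronal-type glucose transporter, differed by -0.21 (adjusted p 0.276). HK1 and HK2, the hexokinases that trap glucose in the cell, differed by 0.12 and -0.05 (adjusted p 0.667 and 0.901). The second HK2 probe gave -1.23 and passed, so the 2 HK2 probes did not measure the same difference.

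Of 12 glycolytic genes tested, 5 were higher in P114 (41.7%, against 16.7% of all genes) and 2 were lower (16.7%, against 20.1%). ALDOC, an aldolase isozyme, stood at 10.64 and 10.71 in P114, against 9.01 and 9.08 in CMT-U27, a difference of 1.63 (SE 0.12, adjusted p 3.17e-05). PFKP, the platelet-type phosphofructokinase of the committed step, stood at 11.53 and 11.94, against 10.18 and 10.26, a difference of 1.51 (SE 0.16, adjusted p 0.00023). The P114 arrays lay above the CMT-U27 arrays for both, as they did for 34.1% of all genes. PFKFB3, which makes the activator fructose 2,6-bisphosphate, was 1.18 higher (adjusted p 0.00495) by its bright probe, at 11.75 and 12.09, against 10.92 and 10.56, but its 3 dim probes gave -0.05 to 0.06. GPI was 0.84 higher (adjusted p 0.00354), at 15.52 and 15.48, against 14.69 and 14.64. PFKM, the muscle-type phosphofructokinase, was 0.55 higher (adjusted p 0.0258), at 11.49 and 11.40, against 10.95 and 10.84, with -0.07 for its other probe.

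PFKL, the liver-type phosphofructokinase, was lower in P114, by -0.64 (adjusted p 0.0246), at 7.96 and 8.35, against 8.68 and 8.91 in CMT-U27. Its other probe gave -0.68. The 3 phosphofructokinase isozymes thus did not share a direction between the lines. TPI1, triose phosphate isomerase, was lower, by -0.86 (adjusted p 0.0456), at 15.14 and 14.95, against 15.66 and 16.15. PGK1, phosphoglycerate kinase, stood at 14.02 and 13.78, against 13.13 and 13.35, and the difference of 0.65 did not pass (adjusted p 0.131), with -0.25 for its other probe. PGAM1, phosphoglycerate mutase, differed by 0.35 (adjusted p 0.131), while its other 2 probes gave 0.66 and 0.99 and passed. ALDOA and ENO2 differed by 0.14 and -0.07 (adjusted p 0.605 and 0.6).

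GAPDH differed by -0.17 (adjusted p 0.689), at 16.14 and 16.07 in P114, against 16.03 and 16.52 in CMT-U27, where the arrays overlap. None of its 7 probes passed, and all 7 were below 0, between -0.88 and -0.12. The 4 printed GAPDH probes, which share most of their bases, gave -0.17, -0.42, -0.43 and -0.88 in the order shown.

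Of 5 genes for pyruvate and lactate 4 differed between the lines in RNA level (80%, against 36.8% of all genes). SLC16A3, the monocarboxylate transporter that exports lactate from glycolytic cells, stood at 9.17 and 9.47 in P114, against 6.83 and 7.04 in CMT-U27. It was 5.21-fold higher in P114 (adjusted p 3.15e-05). Because it was well above background on neither CMT-U27 array, the size of this fold is uncertain. Over the alternatives the log2 difference ranged from 1.26 to 3.36. SLC16A1, a second lactate transporter, stood at 9.67 and 9.48, against 8.16 and 8.08, a difference of 1.45 (SE 0.21, adjusted p 0.00117), with 0.37 for its other probe. LDHA, the lactate dehydrogenase subunit that favours lactate formation, was 1.03 higher (SE 0.14, adjusted p 0.00113), at 15.61 and 15.70, against 14.70 and 14.55, and its other 2 probes passed as well, at 0.97 and 1.14. LDHB, the subunit of oxidative tissues, was lower in P114, by -0.65 (adjusted p 0.0421), at 13.08 and 13.43, against 13.93 and 13.88. PDK1, a kinase that shuts pyruvate dehydrogenase, differed by -0.28 (adjusted p 0.102).

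**Figure D2:**
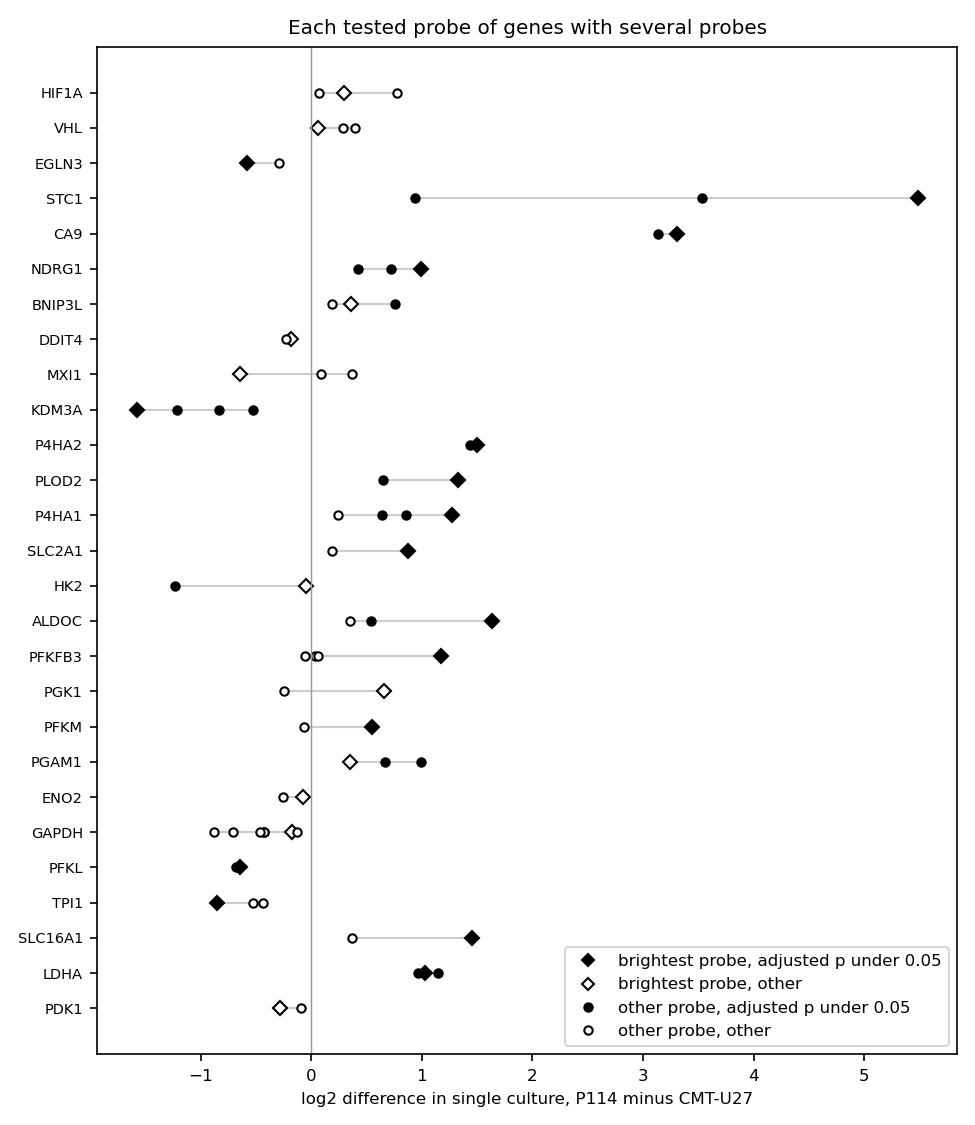
Log2 difference in single culture, P114 minus CMT-U27, for every tested probe of the genes with more than 1 tested probe. Diamonds are the brightest probes, circles the others, and filled symbols have an adjusted p under 0.05; the STC1 probes spread from 0.94 to 5.48, the 4 KDM3A probes all lie left of 0, and the second HK2 probe lies at -1.23.

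Of the 25 genes that passed, 16 had several tested probes, and in 14 of them all probes had the same sign. Without P114 replicate 1, 24 members and 4811 of all genes passed, and without P114 replicate 2, 30 members and 6026 genes. Without CMT-U27 replicate 1, 16 members and 1757 genes passed, and without CMT-U27 replicate 2, 13 members and 1600 genes, against 25 members and 3970 genes with all arrays. Scaling each channel to its 75th percentile left 11 members (10 higher and 1 lower in P114) and 1022 genes. The call held under each of 12 alternatives for STC1, ADM, CA9, ALDOC, PFKP, P4HA2, LDHA, ANKRD37 and KDM3A, and under the 11 that could be run for SLC16A3. The remaining 15 lost it under at least 1, EGLN1 under 8 and TPI1 and LDHB under 5 each.

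**Figure D3:**
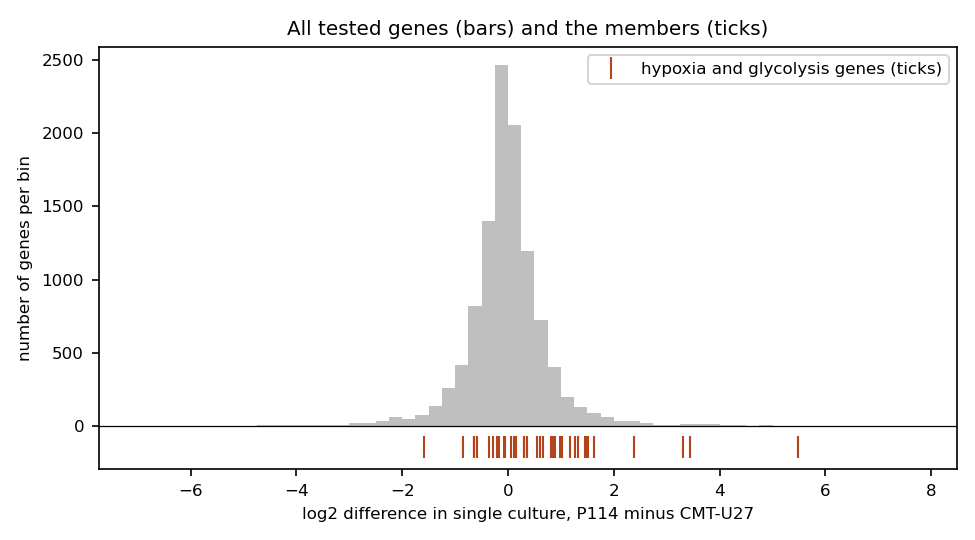
Distribution over 10782 genes of the log2 difference in single culture, P114 minus CMT-U27, as counts per bin of 0.25 log2 units, with the 41 hypoxia and glycolysis genes as ticks below the axis. The ticks reach from -1.58 to 5.48, and more of them lie right of 0 (27) than left of it (14).

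The comparison of co-culture with single culture asked whether macrophages changed these genes within each line. By limma's ratio fit with a dye term no gene passed an adjusted p of 0.05 in either line, so 0 of 41 members and 0% of all genes were called. At an unadjusted p under 0.05, 3 members were higher (7.32%, against 3.91% of all genes) and 5 lower (12.2%, against 2.78%) in P114 co-cultures. In CMT-U27 co-cultures 3 were higher (against 3% of all genes) and 1 was lower (against 1.01%). The values that follow are therefore a description of 2 arrays per line. They also depend on loess. With each array only centred on its median, 0 members were called in P114 and 35 in CMT-U27, where the median over all genes was itself 0.91. The median log2 ratio over the members was -0.05 in P114 (0.01 over all genes) and 0.06 in CMT-U27 (0.03 over all genes).

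**Figure D4:**
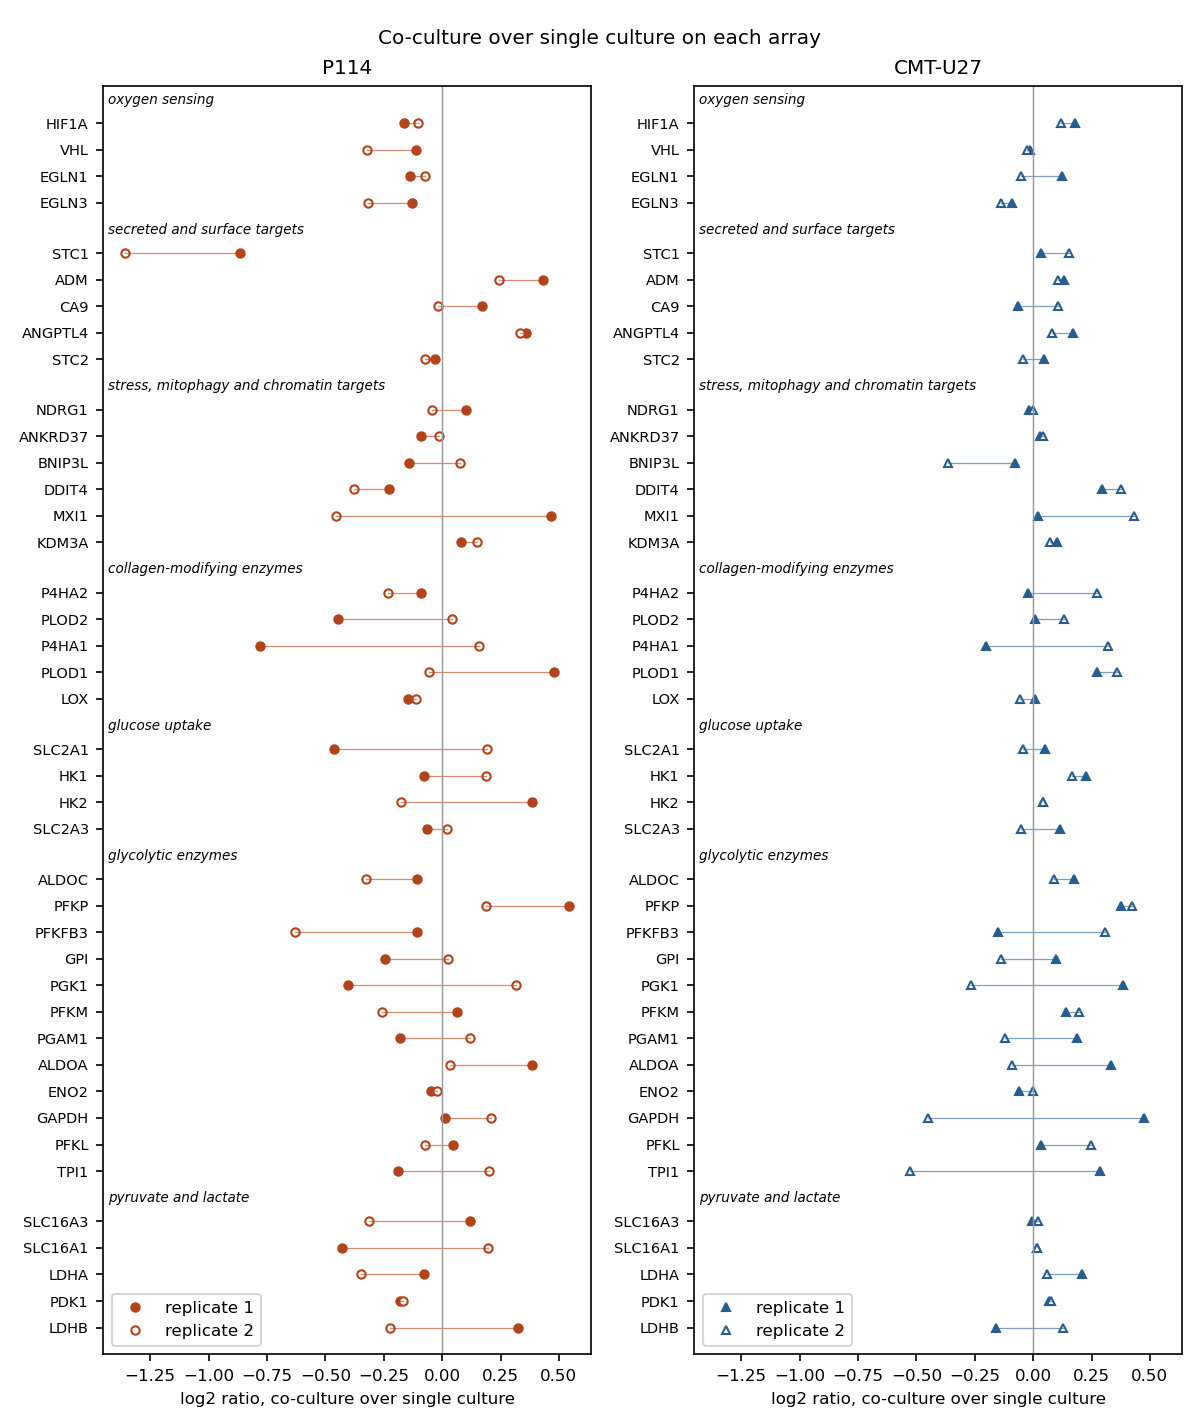
Log2 ratio of co-culture over single culture for each member on the 2 arrays of P114 (left) and the 2 arrays of CMT-U27 (right), with a line joining the 2 arrays. STC1 in P114 lies furthest from 0, at -0.86 and -1.36, while GAPDH and TPI1 in CMT-U27 have 1 array on each side of 0.

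STC1 had the largest ratio of any member. In P114 its log2 ratio was -0.86 on replicate 1 and -1.36 on replicate 2, a mean of -1.11 ± 0.35 (SD, n = 2 arrays), with an unadjusted p of 0.00037 and an adjusted p of 0.797 by limma. All 3 STC1 probes were below 0 on both P114 arrays, the other 2 with means of -1.03 and -0.42. In CMT-U27 the ratios were 0.03 and 0.16. The STC1 level in P114 co-culture, 12.76 and 12.51, still lay far above that in CMT-U27 co-culture, 8.32 and 8.39.

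**Figure D5:**
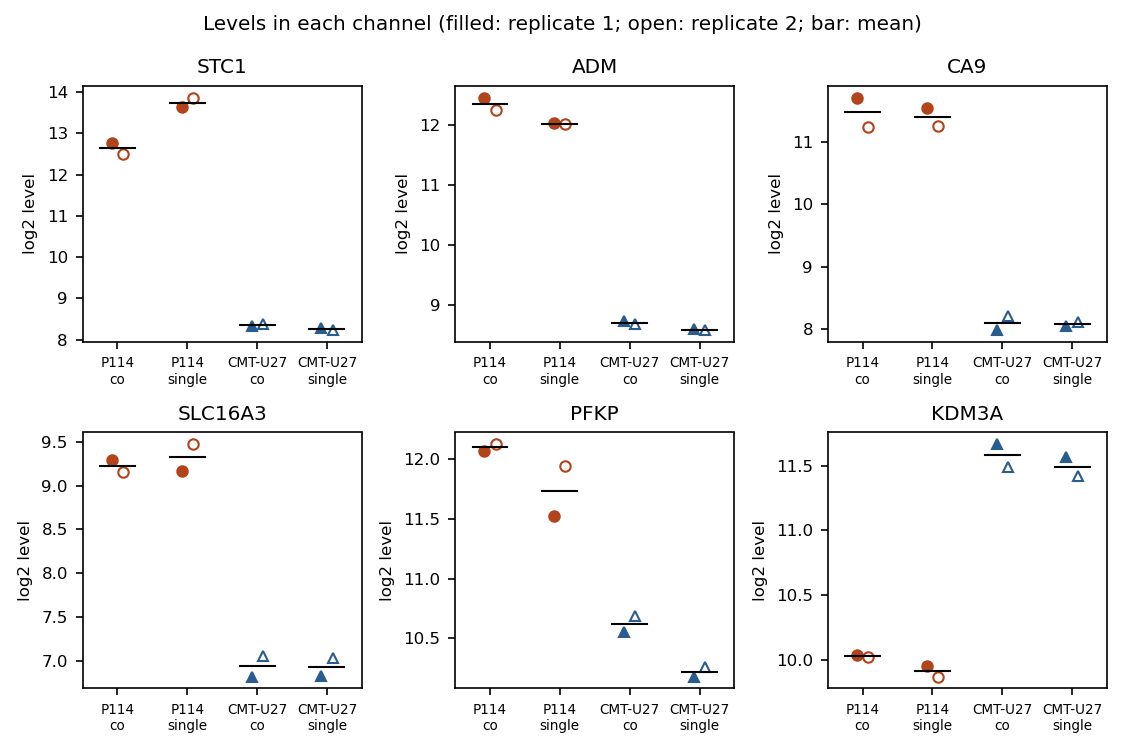
Normalised log2 level of STC1, ADM, CA9, SLC16A3, PFKP and KDM3A in each channel, for P114 co-culture, P114 single culture, CMT-U27 co-culture and CMT-U27 single culture, with filled symbols for replicate 1, open symbols for replicate 2 and a bar for the mean. The y axes differ between genes and do not start at 0; the distance between the lines is larger than that between the cultures in each panel.

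ADM and ANGPTL4, with 1 probe each, were above 0 on all 4 arrays, as were PFKP and KDM3A among the other members. KDM3A gave 0.08 and 0.15 in P114 and 0.10 and 0.07 in CMT-U27. Of its 4 probes 1 had opposite signs on the P114 arrays. The ratios of ADM were 0.43 and 0.24 in P114 and 0.13 and 0.10 in CMT-U27. Those of ANGPTL4 were 0.36 and 0.33 in P114 and 0.17 and 0.08 in CMT-U27. The unadjusted p in P114 was 0.0114 for ADM and 0.0071 for ANGPTL4, both with an adjusted p of 0.797. CA9 gave 0.17 and -0.02 in P114 and -0.07 and 0.11 in CMT-U27, on both sides of 0 in each line. Within the group the 3 genes that differed most between the lines thus had unlike ratios in P114 co-culture, negative for STC1, positive for ADM and of mixed sign for CA9.

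After loess the brightest probes of the 4 oxygen-sensing genes were all below 0 on both P114 arrays, which 19.2% of all genes were. The other EGLN3 probe and 1 of 3 HIF1A probes had opposite signs on the P114 arrays. With median centring the P114 mean of HIF1A was 0.27, against a median of 0.22 over all genes. HIF1A gave -0.16 and -0.10, EGLN1 -0.14 and -0.07, EGLN3 -0.13 and -0.32 and VHL -0.11 and -0.32. In CMT-U27 HIF1A gave 0.18 and 0.12, EGLN3 -0.09 and -0.14, VHL -0.01 and -0.02 and EGLN1 0.12 and -0.05. The sizes in P114 were small, and EGLN3 and VHL had the smallest unadjusted p, 0.0442 and 0.0452.

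DDIT4 was the member with the clearest opposite values. Its ratio was -0.23 and -0.38 in P114 and 0.30 and 0.38 in CMT-U27, with unadjusted p-values of 0.0101 and 0.00699. With median centring its P114 mean was 0.08, below the median of all genes but above 0. Its dimmer probe gave mean ratios of -0.05 and 0.05. BNIP3L, by its brightest probe, which lies on chromosome X unlike the other 2, gave -0.08 and -0.36 in CMT-U27 and -0.14 and 0.08 in P114. With median centring its CMT-U27 mean turned to 1.30 (adjusted p 1.2e-05), and its other 2 probes had means of 0.11 and 0.01 there after loess. MXI1 gave 0.02 and 0.43 in CMT-U27 and 0.47 and -0.46 on the P114 arrays, the widest spread within this group of genes.

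Of the collagen-modifying enzymes, P4HA2 gave -0.09 and -0.23 and LOX -0.15 and -0.11 in P114. P4HA1 gave -0.78 and 0.16 and PLOD2 -0.45 and 0.04, with replicate 1 far below replicate 2. PLOD1 gave 0.27 and 0.36 in CMT-U27 (unadjusted p 0.04) and 0.48 and -0.06 in P114. In P114 no gene of this group was above 0 on both arrays after loess, which 23.7% of all genes were.

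PFKP was the glycolytic gene above 0 on all 4 arrays. Its log2 ratio was 0.54 and 0.19 in P114 and 0.38 and 0.42 in CMT-U27, with unadjusted p-values of 0.0136 and 0.00993. It was the only member at 0.3 or more on both CMT-U27 arrays, with DDIT4 just under that size on 1 of them, and 0.612% of all genes reached it there in either direction. In P114 ANGPTL4 (positive) and STC1 (negative) reached it, as did 0.696% of all genes. PFKFB3 gave -0.11 and -0.63 in P114 (unadjusted p 0.00497) and -0.15 and 0.31 in CMT-U27. Of its 4 probes 2 were below 0 and 2 above 0 on both P114 arrays, and with median centring its P114 mean was 0.04. HK1 gave 0.23 and 0.16 in CMT-U27 (unadjusted p 0.0568).

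The brightest glycolytic probes gave opposite signs on the dye-exchanged arrays of CMT-U27. GAPDH gave 0.47 and -0.45, TPI1 0.29 and -0.53 and PGK1 0.38 and -0.27. All 7 GAPDH probes did so, with 0.36 to 0.54 on replicate 1 and -0.51 to -0.04 on replicate 2. In P114 PGK1 gave -0.40 and 0.31 and SLC2A1 -0.47 and 0.19. In CMT-U27 the co-culture was in Cy5 on replicate 1, and in P114 on replicate 2. Each of these ratios above 0 was thus on the array with co-culture in Cy5, and each below 0 on that with Cy3. The signs therefore followed the dye, and the fit has a dye term for each probe. The part of a dye effect in these ratios was not tested. Their mean ratio averages over both dye orders. A mean near 0 does not by itself show that these genes were unchanged.

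LDHA gave -0.08 and -0.35 in P114 and 0.21 and 0.06 in CMT-U27, and PDK1 gave -0.18 and -0.17 in P114 and 0.07 and 0.08 in CMT-U27. All 3 LDHA probes were below 0 on both P114 arrays after loess, but with median centring the P114 mean turned to 0.25. The PDK1 arrays of each line agreed closely, with unadjusted p-values of 0.0513 and 0.308. SLC16A1 gave -0.43 and 0.20 and SLC16A3 0.12 and -0.31 in P114, and all 4 of their CMT-U27 ratios lay between -0.01 and 0.02.

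The difference between the lines in the co-culture ratio, CMT-U27 minus P114, was tested in the same fit. No member and 0% of all genes passed, and the smallest adjusted p over the members was 0.9998. At an unadjusted p under 0.05, 6 members had a higher ratio in CMT-U27 (2.52% of all genes did) and 0 a lower one (0.807%). The difference was 1.20 (SE 0.13, unadjusted p 0.00097) for STC1, 0.64 (SE 0.09, unadjusted p 0.00251) for DDIT4 and 0.45 (SE 0.09, unadjusted p 0.00831) for the brightest PFKFB3 probe, while the other 3 PFKFB3 probes gave -0.05 to 0.07. It was 0.28 for HIF1A, 0.29 for P4HA2 and 0.35 for ALDOC, with unadjusted p-values of 0.0342, 0.043 and 0.0437. LDHA had 0.35 and PDK1 0.25, with unadjusted p-values of 0.0718 and 0.051.

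After loess, both CMT-U27 arrays were above 0 and both P114 arrays below 0 for 7 of 41 members, HIF1A, STC1, DDIT4, ANKRD37, ALDOC, LDHA and PDK1, and for 6.47% of all genes. The reverse held for 0 members and 1.85% of all genes. ALDOC gave 0.18 and 0.09 in CMT-U27 and -0.11 and -0.32 in P114 by its brightest probe alone. Its other 2 probes were above 0 on both P114 arrays, and averaged over probes the ALDOC difference was 0.07. ANKRD37 gave 0.03 and 0.04 in CMT-U27 and -0.09 and -0.02 in P114. The values of ANKRD37 lie so near 0 that their sign carries little. With median centring 30 members were called as higher in CMT-U27 in this test, as were 5586 of all genes, whose median difference was 0.67. STC1 was then 1.47 (adjusted p 0.00736), and its P114 mean was -0.68.

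Macrophage RNA could enter a co-culture, so 18 macrophage markers were examined. Only CD14, CD163, CD68 and CD86 were bright enough to test. CSF1R, MRC1, MSR1, AIF1, C1QA, TYROBP, ITGAM, LYZ and MARCO were well above background on 1 P114 array and no CMT-U27 array. C1QC, FCER1G and SPI1 were so on 1 P114 array and in 1 CMT-U27 co-culture channel, but in no CMT-U27 single-culture channel. C1QB was so in 1 channel of each line and culture, and VSIG4 on no array. The summed linear level of the 4 tested markers was 1382 to 1564 in P114 co-culture and 1575 to 1599 in P114 single culture. It was 1320 to 1491 in CMT-U27 co-culture and 1215 to 1424 in CMT-U27 single culture. Their median log2 ratio was 0.01 in P114 and 0.03 in CMT-U27. CD86, a costimulatory receptor, had -0.34 and -0.35 on the P114 arrays (unadjusted p 0.0058, adjusted p 0.797). In the single cultures, kept without macrophages, its mean level was 9.33 in P114 and 6.97 in CMT-U27. That difference of 2.36 had an adjusted p of 2e-06 by limma's separate-channel fit. The sums above are therefore not specific to macrophage RNA. The part of macrophage RNA in the co-culture ratios was not tested.

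Other genes of oxygen sensing, glycolysis, pyruvate entry and the pentose phosphate pathway came from a list of 73, of which 50 were tested. In single culture 7 were higher and 15 lower in P114 (44.0% together, against 36.8% of all genes), with a median difference of -0.04. ENO3, the muscle-type enolase, was 4.10 higher (adjusted p 5.73e-07), and PGM1, which links glycogen to glycolysis, was 1.28 higher (adjusted p 0.000564). LOXL2, a lysyl oxidase relative, was 1.03 higher (adjusted p 0.000514). FBP1, the gluconeogenic enzyme that opposes phosphofructokinase, was lower in P114, at -4.47 log2 units (adjusted p 3.28e-07), with 1 of the 2 P114 arrays not well above background. PKM, pyruvate kinase, differed by 0.99 (adjusted p 0.0522).

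In co-culture none of the 50 passed. LOXL2 gave log2 ratios of -0.50 and -0.41 in P114 (unadjusted p 0.00232 by limma) and 0.13 and -0.02 in CMT-U27. PDHA1, a subunit of pyruvate dehydrogenase, had 0.32 in P114 (unadjusted p 0.0116), KDM4C, a histone demethylase, -0.23 (unadjusted p 0.0246) and BRP44L, the older symbol of a mitochondrial pyruvate carrier subunit, 0.21 (unadjusted p 0.0339). In CMT-U27 the smallest unadjusted p belonged to PKLR, at a mean of 0.17 (0.0574), followed by PKM at 0.59 (0.0759), PGM2 at 0.16 (0.0772) and PLOD3 at 0.31 (0.106).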

How the data were processed

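RNA of 4 two-colour arrays was analysed, 2 for each line, and samples were grouped by the label of each channel. The deposited scanner files hold linear intensity per spot, written by Agilent Feature Extraction (10.10.1.1 per the file headers, 10.7.3.1 per the submitters' processing notes). Per the file headers the deposited log10 ratio is Cy5 over Cy3, and the deposited flags of 0 or 1 mark spots. The labels' protocols name a miRNA labelling kit for these gene expression arrays.

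Intensity was corrected with normexp (offset 50), loess was applied within each array, marked spots were dropped, spots of a probe were averaged and log2 ratios were turned to co-culture over single culture. If the channel labels of a line were in the wrong order, its co-culture ratios would change sign. Probes well above background on both arrays of a line and culture were tested (28692 of 43603), and a gene was shown by its brightest probe. Ratios were fitted with limma 3.58.1 in R 4.3.3 (a coefficient per line, a dye term, 1 residual degree of freedom beside 2.76 prior) and the lines by a separate-channel fit after Aquantile (intraspot correlation 0.608). Tests are two-sided. Scripts were tested on simulated data. Figures used Python 3.11.15 and matplotlib 3.10.9.

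Values in full were given for members past the threshold, for the 6 largest means in each comparison with like sign on both arrays and for 8 set genes. The other members were given in brief. Of the related genes, PKM and the 4 with the smallest p were named. Members and lists were chosen with earlier results of these data known. RefSeq names (UU_Cfam_GSD_1.0) were used for symbols only. Per the labels the arrays are biological replicates, but separate RNA extracts are not stated, so p-values may measure technical spread. All 4 arrays lay on 1 slide. Precision is limited by the number of arrays.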

Additional observations from a re-analysis of the deposited data

How the results depend on the processing

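All alternatives had been listed with the design. Values that passed the threshold kept their direction. Others turned: with median centring the P114 ratios of HIF1A, DDIT4, PFKFB3 and LDHA became positive, and BNIP3L in CMT-U27 became 1.30 (adjusted p 1.2e-05). With the 75th percentile the line difference of ANGPTL4 became -0.19. The co-culture ratios pair the cultures within each array. The lines could not be paired, because replicate numbers follow record order and pair nothing across lines. Medians are of members' log2 values. Median centring in place of loess called 4 genes in P114, 7292 (35 members) in CMT-U27 and 5628 (30 members) in the difference between lines; medians were 0.28, 1.28 and 0.94, against 0.22, 0.91 and 0.67 over all genes, and genes moved unequally (in CMT-U27 LDHA to 1.71, CA9 to 0.61). Without background correction 4 genes were called in CMT-U27 (median 0.046) and 1 in the difference, and the single-culture line median was 0.40. The CMT-U27 median was 0.0785 with the scanner's log ratio and with the series value table, 0.0509 without the filter and 0.0504 averaged over probes, where the line median was 0.30; a filter on all channels called 1 gene in CMT-U27. With the 75th percentile the line comparison called 1022 genes and 11 members (median 0.60, against -0.51 over all genes). Leaving out each array gave 0 to 24 genes in P114 (24 without P114 replicate 2), 0 to 6 in CMT-U27 (6 without CMT-U27 replicate 1) and 0 to 25 in the difference, with no member called in any, P114 medians of -0.0895 to -0.0434 and CMT-U27 medians of 0.0513 to 0.0588. For the lines it gave 1600 to 6026 genes, 13 to 30 members and medians of 0.27 to 0.46; with 1 array left in a line, that array is assumed to vary like the others. Dim probes limit folds, as for SLC16A3 in CMT-U27. The cause of these shifts was not tested.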
